A study of Mus musculus with 12 samples.

Results

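The TRAV gene segments encode the variable part of the T cell receptor alpha chain. They were followed here through T cells sorted from the brain parenchyma of mice with amyloid, tau, both or neither. Members were all V gene names starting with TRAV among the productive alpha (TRA) chains of the receptor libraries, which gave 89 TRAV segments of 111 V segments in all, the other 22 being TRBV segments. Each clone of a pool was counted once per TRAV segment, however many cells it had; the unit is called a clone count below. The 9038 clones with a TRAV call gave 10089 clone counts, since 1051 clones held chains of 2 TRAV segments.

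The mice were 9-month-old females from crosses of hemizygous PS19 and hemizygous 5XFAD animals, and the 4 genotypes were littermates. PS19 mice (B6C3F1/J, as purchased) carry mutant human tau (MAPT) driven by the prion protein promoter of the mouse, and 5XFAD mice (C57BL6 congenic) are an amyloid model. The 6 pools were PS-5X with both transgenes (4 mice), 5XFAD-1 (4 mice) and 5XFAD-2 (3 mice) with amyloid alone, PS19 with tau alone (4 mice), and WT-1 (10 mice) and WT-2 (8 mice) with neither. After perfusion, T cells positive for CD4, CD8 or the γδ receptor were sorted from digested brain tissue and pooled over mice, so a pool is 1 sample. For comparisons made within pools (CD8 against CD4, expanded against singleton), p-values measure how the difference varies from pool to pool. For amyloid and tau they measure the spread between pools. PS-5X and PS19 were 1 pool each, and 5XFAD-2 and WT-2 were sequenced in a separate run.

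During development in the thymus an alpha gene is made by joining 1 of many V segments to 1 of many TRAJ segments. Joining tends to start with V and J segments that lie close to each other and can go on, by further deletions on the same chromosome, to segments farther out. The V segment encodes the first 2 complementarity-determining loops (CDR1 and CDR2), which mostly touch the MHC molecule, while CDR3 forms at the V-J junction. Mouse TRAV segments lie on chromosome 14 and come in several near-identical sets, whose copies carry a D or an N in their names; a DV in a name marks a segment that can also be used by the delta chain. CD8 T cells read MHC class I and CD4 T cells MHC class II. Invariant natural killer T (iNKT) cells, which see lipids on CD1d, use TRAV11 joined to TRAJ18, and mucosal-associated invariant T (MAIT) cells, which see vitamin metabolites on MR1, use TRAV1 joined to TRAJ33.

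The segments with the clearest CD8 or CD4 use in the results that follow are shown with their most common sequence in the deposited contigs, from the first base of CDR1 to the last base of CDR2, on the coding strand and 5′ to 3′. Capitals mark CDR1 and CDR2, and lower case marks the framework between them. The first 5 were used more by CD8 clones.
TRAV16N: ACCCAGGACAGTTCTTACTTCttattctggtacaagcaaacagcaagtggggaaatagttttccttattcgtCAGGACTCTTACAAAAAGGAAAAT
TRAV8N-2: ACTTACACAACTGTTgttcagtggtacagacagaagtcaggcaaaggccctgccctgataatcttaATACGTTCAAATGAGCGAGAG
TRAV8D-2: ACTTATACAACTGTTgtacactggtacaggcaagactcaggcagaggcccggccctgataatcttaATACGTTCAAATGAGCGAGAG
TRAV3-4: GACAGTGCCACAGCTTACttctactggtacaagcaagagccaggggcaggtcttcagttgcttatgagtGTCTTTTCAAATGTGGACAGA
TRAV12D-2: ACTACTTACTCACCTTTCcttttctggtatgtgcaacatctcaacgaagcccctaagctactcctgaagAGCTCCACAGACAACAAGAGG
The next 4 were used more by CD4 clones.
TRAV11: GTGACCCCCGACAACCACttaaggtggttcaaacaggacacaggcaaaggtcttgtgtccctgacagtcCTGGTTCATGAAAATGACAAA
TRAV4-2: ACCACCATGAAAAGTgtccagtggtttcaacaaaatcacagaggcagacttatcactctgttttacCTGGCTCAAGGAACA
TRAV14D-3-DV8: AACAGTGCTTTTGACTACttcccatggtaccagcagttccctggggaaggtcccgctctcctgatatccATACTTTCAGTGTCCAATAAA
TRAV9-1: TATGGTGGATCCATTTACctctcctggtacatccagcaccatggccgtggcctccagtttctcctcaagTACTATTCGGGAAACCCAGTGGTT
The last 2 are close relatives of printed segments and did not pass the CD8 against CD4 test.
TRAV8D-1: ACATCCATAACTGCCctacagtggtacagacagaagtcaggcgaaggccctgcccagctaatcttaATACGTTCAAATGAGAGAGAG
TRAV14D-1: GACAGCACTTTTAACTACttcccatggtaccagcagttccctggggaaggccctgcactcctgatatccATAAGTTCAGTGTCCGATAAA
TRAV8D-2 and TRAV8N-2, both used more by CD8 clones, differed at 1 base of CDR1, 8 bases of the framework and 0 bases of CDR2. TRAV8D-2 and TRAV8D-1 differed at 6 bases of CDR1, 11 of the framework and 1 base of CDR2. TRAV14D-3-DV8 differed from TRAV14D-1 at 4 bases of CDR1, 3 of the framework and 3 bases of CDR2. Whether class use follows any of these stretches was not tested.

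The pools held 18374 cell barcodes, 15099 with a receptor and 12999 with a TRA contig, and a TRA contig rested on a median of 4 to 5 UMIs (unique molecular identifiers, which count molecules) by pool. Clones with a TRAV call numbered 2729, 1206, 1117, 1501, 490 and 1995 in PS-5X, 5XFAD-1, 5XFAD-2, PS19, WT-1 and WT-2, so WT-1 gave the least precise shares. Among barcodes with a TRA contig (median 6280 UMIs of gene expression), 99.4% had a Cd3e UMI, 1.32% a Trdc UMI, 0.26% a Cd79a UMI and 0.08% a C1qa UMI. Among barcodes with no receptor (median 4846 UMIs), 25.3% had a Trdc UMI. Ighm, a B cell gene, had a UMI in 33.4% of barcodes with a TRA contig and in 22.6% of those with no receptor, while the B cell marker Ms4a1 had one in 0.11% and 1.25%. In all, 166 barcodes occurred in more than 1 pool. WT-1 stood apart: 103 of its 478 clones with both chains (21.5%) carried a receptor found in another pool, of which 58 were shared with 5XFAD-1, 44 with PS19 and 2 with PS-5X. The tests of clone counts were therefore repeated without those receptors of WT-1.

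Use was spread over many segments. Of the 89 segments, 74 were found in all 6 pools, 74 had at least 20 clone counts, and 18 made up 50% of all clone counts, where an even spread would give each segment 1.12%. TRAV16N led with 511 clone counts (5.06%), followed by TRAV6-6 with 432, TRAV13-1 with 404, TRAV12D-2 with 371 and TRAV9-1 with 370. TRAV9-4 had 351, TRAV12-3 had 287, TRAV6N-7 had 261, TRAV11 had 250 and TRAV14D-1 had 232 clone counts, and these 10 together held 34.4%. At the other end, 4 segments had fewer than 5 clone counts: TRAV6D-5 and TRAV7-2 with 4 each, TRAV18 with 2 and TRAV9D-4 with 1. RefSeq lists 114 V segments and 16 pseudogenes in the locus (GRCm38.p6, chr14:52427967-53977678). No pseudogene name was called, and 25 V segments had no call, 18 of them N copies, 4 of them D copies and 3 with neither letter. TRAV11D, the near copy of the iNKT segment, was among the 25. A missing call does not show that a segment was unused, as names can differ between the 2 kinds of library. TRAV12N-3, also among the 25, had 99 UMIs in the gene expression sums, where TRAV12D-3 had 0. Of 85 cells with a TRAV12D-3 contig and a Trav UMI, 39 had most UMIs of Trav12n-3. Whether these UMIs come from the chains called TRAV12D-3 was not tested. The set of segment names used for the calls was not available, so a name missing from it cannot be told from an unused segment.

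Names of near-identical copies are uncertain. Stretches from the first framework to the third were found identical under 2 names, as for TRAV16D-DV11 (30 clones) and TRAV16N (199 clones). In 1 such pair the same stretch was called TRAV7-2 in 3 clones and TRAV7D-2 in 65 clones. Tests were therefore repeated with D, N and unlettered copies of a name joined.

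Cells were classed by coreceptor UMIs as CD8 (a Cd8a or Cd8b1 UMI and no Cd4 UMI) or CD4 (the converse), and a clone took the class of most of its classed cells. Of the cells with a TRA contig, 71.3% were CD8, 18.8% CD4, 6.99% had none of these UMIs and 2.97% had both kinds. The classes gave 6522 CD8, 2367 CD4 and 1200 unclassed clone counts. CD8 counts ran from 356 in WT-1 to 2014 in PS-5X, and CD4 counts from 132 in WT-1 to 637 in PS-5X.

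CD8 and CD4 clones used different segments. Of the 74 segments tested, 19 passed edgeR's quasi-likelihood test with pool as a block at a Benjamini-Hochberg adjusted p under 0.05 (25.7%). Of these, 9 were higher in CD8 clones (12.2%) and 10 lower (13.5%), and the median log2 fold change of CD8 over CD4 usage over all 74 was 0.06. With TMM scaling, which moved that median to 0.21, the split was 11 higher and 8 lower. An unadjusted p under 0.05 was reached by 26 segments (35.1%). The 6 CD8 shares and the 6 CD4 shares did not overlap for 8 segments (10.8%), all of them among the 19. Without the WT-1 receptors found in other pools, the same 19 segments passed, 9 higher and 10 lower.

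**Figure D1:**
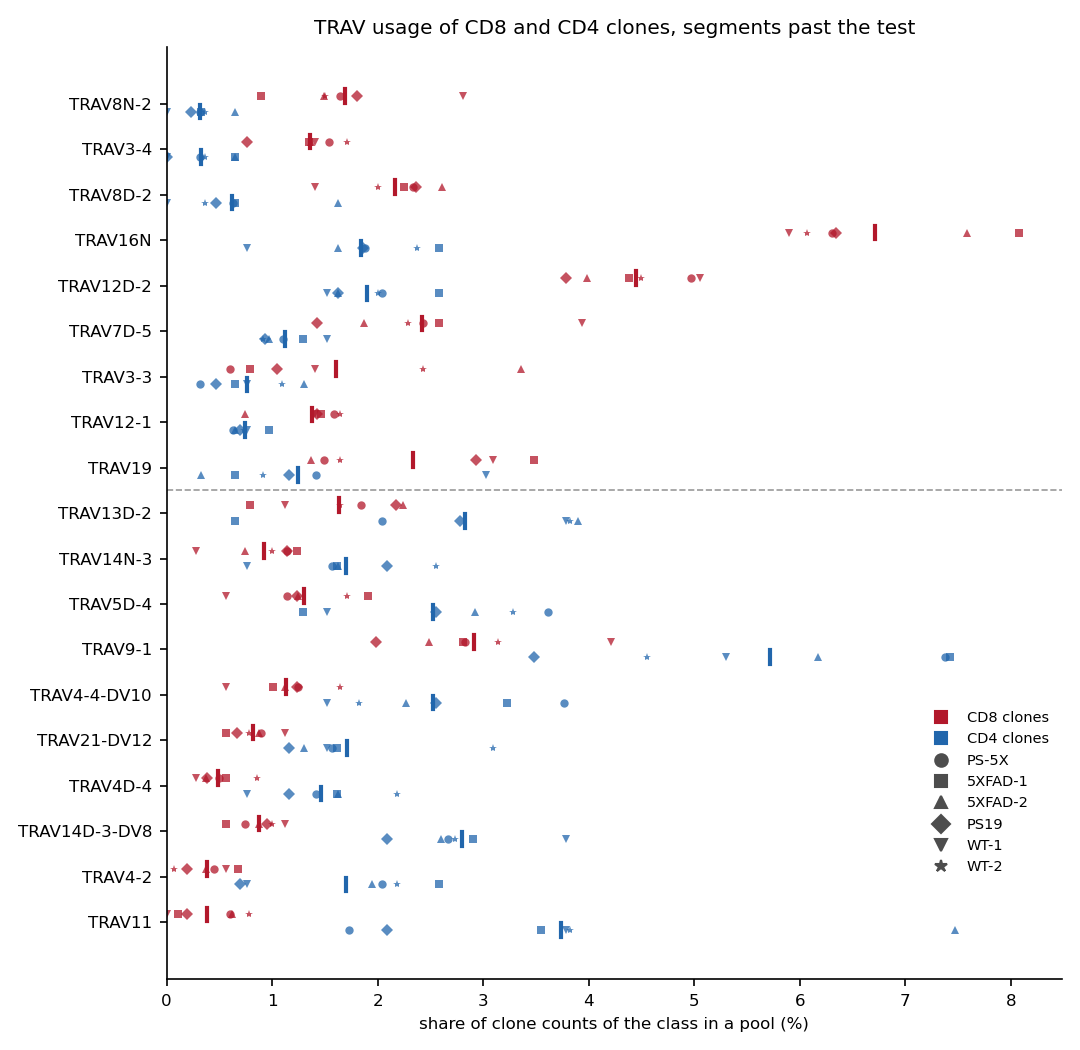
Share of the clone counts of a class (x axis, percent) for the 19 segments past the CD8 against CD4 test (rows), with CD8 clones in red above CD4 clones in blue. Each symbol is a pool and each vertical bar the mean over 6 pools; rows above the dashed line were higher in CD8 clones. TRAV16N lies farthest right among CD8 shares, at 5.90% to 8.08%, and TRAV11 in 5XFAD-2 farthest right among CD4 shares, at 7.47%.

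TRAV16N was the most used segment of CD8 clones. Its shares of CD8 clone counts were 6.31%, 8.08%, 7.59%, 6.34%, 5.90% and 6.07% in PS-5X, 5XFAD-1, 5XFAD-2, PS19, WT-1 and WT-2. Its shares of CD4 clone counts were 1.88%, 2.58%, 1.62%, 1.86%, 0.758% and 2.37% in the same pools. Every CD8 share exceeded every CD4 share, with means of 6.71 ± 0.896% for CD8 and 1.84 ± 0.64% for CD4 (SD, n = 6 pools each; log2 fold change 1.74, SE 0.18, edgeR adjusted p = 8.07e-07). The segment lies at chr14:53351090-53351621.

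The largest ratio among the segments higher in CD8 clones was that of TRAV8N-2 (chr14:53345961-53346424). Its shares of CD8 clone counts were 1.64%, 0.898%, 1.49%, 1.80%, 2.81% and 1.5% in PS-5X, 5XFAD-1, 5XFAD-2, PS19, WT-1 and WT-2. In the CD4 clones of those pools they were 0.314%, 0.323%, 0.649%, 0.232%, 0% and 0.364%, on 8 clone counts in all against 103 for CD8. A count of 0 in WT-1 allows a CD4 share of up to 2.27% (3 of 132 counts, counting error only). The classes did not overlap (log2 fold change 2.17, SE 0.40, edgeR adjusted p = 0.000333). Its relative TRAV8D-2 (chr14:53042428-53042891) averaged 2.16 ± 0.42% of CD8 and 0.621 ± 0.544% of CD4 clone counts (n = 6 pools each; log2 fold change 1.79, SE 0.31, edgeR adjusted p = 0.000176). It was higher in CD8 clones in 6 of 6 pools, though its lowest CD8 share, 1.40% in WT-1, was below its highest CD4 share, 1.62% in 5XFAD-2. TRAV8D-1, which differs from TRAV8D-2 in CDR1, the framework and CDR2, had a log2 fold change of 0.06 and did not pass (edgeR adjusted p = 0.896).

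TRAV3-4 (chr14:53777071-53777576) averaged 1.35 ± 0.323% of CD8 and 0.329 ± 0.29% of CD4 clone counts, with 91 against 8 counts (log2 fold change 1.98, SE 0.44, edgeR adjusted p = 0.0018). Its CD8 shares ran from 0.758% in PS19 to 1.71% in WT-2, all above the CD4 shares, which ran from 0% in PS19 and WT-1 to 0.649% in 5XFAD-2; a count of 0 allows up to 0.696% in PS19 and up to 2.27% in WT-1, the second of which exceeds every CD8 share. TRAV12D-2 (chr14:52915915-52916426) was common in both classes and did not overlap between them. Its CD8 shares were 4.97%, 4.38%, 3.98%, 3.79%, 5.06% and 4.50% in PS-5X, 5XFAD-1, 5XFAD-2, PS19, WT-1 and WT-2, against CD4 shares of 2.04%, 2.58%, 1.62%, 1.62%, 1.52% and 2.00% (log2 fold change 1.19, SE 0.18, edgeR adjusted p = 5.28e-05). The remaining 4 higher segments were TRAV7D-5 (log2 fold change 1.07), TRAV3-3 (1.06), TRAV12-1 (0.97) and TRAV19 (0.93), with edgeR adjusted p-values from 0.00178 to 0.0283. All 4 overlapped between classes. TRAV3D-3, which had the same CDR1 and CDR2 bases as TRAV3-3 in its most common sequence, did not pass.

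TRAV11 differed most between the classes. It took 0.596%, 0.112%, 0.622%, 0.189%, 0% and 0.785% of CD8 clone counts in PS-5X, 5XFAD-1, 5XFAD-2, PS19, WT-1 and WT-2. Its CD4 shares were 1.73%, 3.55%, 7.47%, 2.09%, 3.79% and 3.83% in the same pools, all above its CD8 shares. The count of 0 in WT-1 allows a CD8 share of up to 0.843%. The mean share was 0.384 ± 0.323% for CD8 and 3.74 ± 2.04% for CD4 (n = 6 pools each; log2 fold change -2.80, SE 0.35, edgeR adjusted p = 7.88e-06). A further 139 of its 250 clone counts had no class, against 1200 of 10089 over all segments. The segment lies at chr14:53519303-53519859.

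Of the 250 TRAV11 clones, 232 (92.8%) joined TRAV11 to TRAJ18, the iNKT alpha chain, with 16 classed CD8, 79 CD4 and 137 without a class. All 232 had a CDR3 of 45 bases, with 12 distinct sequences. The first and second most common are shown for how little the junction varied, with the 1 base that differs in capitals.
Most common, 88 clones: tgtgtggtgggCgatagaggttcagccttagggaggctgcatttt
Second, 46 clones: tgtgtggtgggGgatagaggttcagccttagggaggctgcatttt
Both were found in all 6 pools. TRAV1 joined to TRAJ33, the MAIT alpha chain, was found in 15 of 90 TRAV1 clones: 12, 2, 0, 0, 1 and 0 in PS-5X, 5XFAD-1, 5XFAD-2, PS19, WT-1 and WT-2. TRAV1 as a whole did not pass the class test (log2 fold change 0.24, edgeR adjusted p = 0.699).

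TRAV4-2 (chr14:53418388-53418873) was lower in CD8 clones (log2 fold change -2.34, SE 0.43, edgeR adjusted p = 0.000317). Its shares of CD8 clone counts were 0.447%, 0.673%, 0.373%, 0.189%, 0.562% and 0.0714% in PS-5X, 5XFAD-1, 5XFAD-2, PS19, WT-1 and WT-2, against 2.04%, 2.58%, 1.95%, 0.696%, 0.758% and 2.19% of CD4 clone counts. The highest CD8 share lay just under the lowest CD4 share, on few clones. The CD4 shares of PS19 and WT-1 were 3 clone counts and 1 clone count. The CD8 shares of PS19, WT-1 and WT-2 were 2, 2 and 1 clone counts. A single clone more or less could make the classes overlap. Among its relatives, TRAV4D-4 (log2 fold change -1.52, edgeR adjusted p = 0.00223) and TRAV4-4-DV10 (-1.12, edgeR adjusted p = 0.00178) were also lower in CD8 clones, in 6 of 6 pools each.

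TRAV14D-3-DV8 (chr14:53078547-53079045) averaged 0.874 ± 0.199% of CD8 and 2.80 ± 0.558% of CD4 clone counts, on 55 and 63 counts (log2 fold change -1.64, SE 0.25, edgeR adjusted p = 5.28e-05). The CD8 shares ran from 0.561% in 5XFAD-1 to 1.12% in WT-1 and the CD4 shares from 2.09% in PS19 to 3.79% in WT-1, without overlap. TRAV14N-3, identical to it in CDR1 and different at 3 bases of the framework and 2 bases of CDR2, was also lower in CD8 clones (log2 fold change -0.85, edgeR adjusted p = 0.0253). TRAV14D-1 (-0.24, edgeR adjusted p = 0.399) and TRAV14D-2 (-0.38, edgeR adjusted p = 0.239) did not pass.

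TRAV9-1 (chr14:53488106-53488567) had the largest share of CD4 clone counts among the 19. It averaged 2.91 ± 0.748% of CD8 and 5.72 ± 1.57% of CD4 clone counts (log2 fold change -1.04, SE 0.17, edgeR adjusted p = 0.000118) and was lower in CD8 clones in 6 of 6 pools, with overlap between pools. Its relative TRAV9-4, which differed at 10 bases of CDR1, 15 of the framework and 2 of CDR2, had a log2 fold change of 0.01 (edgeR adjusted p = 0.984). The other 3 lower segments were TRAV21-DV12 (-1.15), TRAV5D-4 (-1.02) and TRAV13D-2 (-0.66), with edgeR adjusted p-values from 0.00346 to 0.0348. The classes did not overlap for TRAV21-DV12, and TRAV5D-4 and TRAV13D-2 were lower in CD8 clones in 5 of 6 pools.

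For 7 of the 19 segments the call rested on single pools. Without WT-2, 6 of them no longer passed the edgeR test: TRAV3-3 (adjusted p = 0.0902), TRAV12-1 (0.0999), TRAV19 (0.0582), TRAV21-DV12 (0.104), TRAV14N-3 (0.126) and TRAV13D-2 (0.192). TRAV3-3, TRAV19, TRAV14N-3 and TRAV13D-2 also did not pass without 5XFAD-2 (edgeR adjusted p from 0.0586 to 0.108), nor TRAV19 without 5XFAD-1 or PS19 (0.0996 and 0.0957), nor TRAV13D-2 without WT-1 (0.0593). TRAV12-1 (0.117) and TRAV5D-4 (0.0503) did not pass without PS-5X. The other 12 passed with any 1 pool left out.

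Of the 10 most used segments, 4 were among the 19 (TRAV16N, TRAV12D-2, TRAV9-1 and TRAV11). TRAV6-6 (log2 fold change 0.24), TRAV13-1 (0.09), TRAV9-4 (0.01), TRAV12-3 (0.01), TRAV6N-7 (-0.46) and TRAV14D-1 (-0.24) did not pass, although TRAV6N-7 did with the copies of its name joined (-0.48, edgeR adjusted p = 0.0245). Signs of TRAV6-6, TRAV13-1, TRAV9-4 and TRAV12-3 turned under at least 1 alternative, so no direction is given for them. TRAV7D-2, a segment of the second largest clone, had a log2 fold change of -0.29 (edgeR adjusted p = 0.54).

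When segments were joined by subgroup number, 11 of 19 subgroups passed the edgeR test. Higher in CD8 clones were TRAV16 (log2 fold change 1.66), TRAV3 (1.10), TRAV19 (0.93), TRAV8 (0.80) and TRAV12 (0.66). Lower were TRAV11 (-2.77), TRAV21 (-1.17), TRAV4 (-0.98), TRAV14 (-0.59), TRAV5 (-0.55) and TRAV9 (-0.33). With only the D, N and unlettered copies of a name joined, 18 of 45 passed, 9 in each direction.

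Under the names as called, segments with DV took a smaller part of CD8 than of CD4 clone counts. Together they held 5.06%, 4.38%, 4.35%, 6.34%, 4.78% and 5.78% of CD8 counts in PS-5X, 5XFAD-1, 5XFAD-2, PS19, WT-1 and WT-2. Their CD4 shares were 10.8%, 10.0%, 9.42%, 9.05%, 9.09% and 9.29%, above the CD8 shares in every pool. Of the 10 such segments 7 were tested, with 0 higher in CD8 clones, 3 lower (TRAV14D-3-DV8, TRAV21-DV12 and TRAV4-4-DV10) and a median log2 fold change of -0.65, against 0.06 over all 74. The DV shares depend on the names. TRAV16N was counted without DV, though 199 of its clones (167 CD8, 17 CD4) had the same V stretch as TRAV16D-DV11. The DV segments averaged 5.12% of CD8 and 9.61% of CD4 clone counts, and the gap of TRAV16N runs the other way and is about as large. With all of TRAV16N counted as a DV segment, the lower mean CD8 share would therefore not remain. No test was run on that recount. N copies, of which 10 of 13 were tested, held 15.4 ± 1.39% of CD8 and 9.98 ± 3.05% of CD4 clone counts, with 2 higher, 1 lower and a median of 0.13. Most of that gap in share was the gap of TRAV16N alone, whose shares are given above, so it is not a trait of N copies in general. D copies held 32.4% of CD8 and 32.1% of CD4 clone counts, with 3 higher, 4 lower and a median of -0.10 over 23 tested. Unlettered segments had 4 higher and 5 lower of 41 tested and a median of 0.09.

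**Figure D2:**
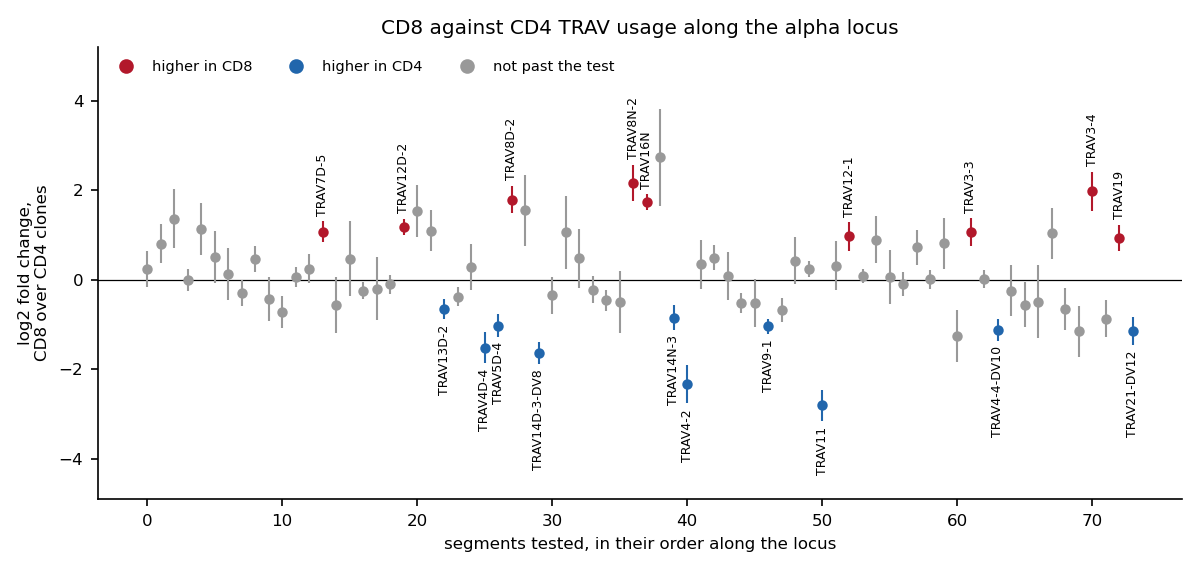
Log2 fold change of usage, CD8 over CD4 clones (y axis), for the 74 tested segments in their order along the alpha locus (x axis), the TRAJ segments lying beyond the right end. Points are the fitted values and bars their standard errors. Labelled, coloured points passed the test; TRAV8N-2 at 2.17 is the highest and TRAV11 at -2.80 the lowest of the 19, and higher and lower segments are mixed along the axis.

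Segments of both kinds lay throughout the locus. Of the 25 tested segments farthest from the TRAJ segments 2 were higher and 1 lower in CD8 clones, of the middle 25 3 were higher and 6 lower, and of the nearest 24 4 were higher and 3 lower. The 3 parts held 33.1%, 36.1% and 29.5% of CD8 clone counts, and 28.8%, 38.5% and 31.6% of CD4 clone counts.

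The gene expression libraries of the same cells read Trav transcripts without the receptor enrichment. Sums of UMIs per pool and class were compared over all genes, of which 3092 of 10741 passed the edgeR test (28.8%), 1478 higher (13.8%) and 1614 lower (15%) in CD8 cells. Among the 63 Trav genes tested, 9 were higher and 18 lower, with a median log2 fold change of -0.26 against 0.00 over all genes. Of the 19 segments past the clone test, 13 could be tested here, all 13 had the same sign, and 11 passed. Trav8n-2 had a log2 fold change of 1.98 and Trav8d-2 of 1.89, while Trav14d-3-dv8 had -1.45 and Trav4-2 -1.92. TRAV19 (0.63, edgeR adjusted p = 0.164) and TRAV3-3 (0.09, edgeR adjusted p = 0.755) did not pass. These sums count cells and not clones, and they share their cells with the receptor libraries.

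The 6 segments that could not be tested had few or no UMIs under their own name in the expression matrix: 35 for TRAV11, 3 for TRAV4D-4 and 0 for TRAV12D-2, TRAV7D-5, TRAV5D-4 and TRAV13D-2. Among 11567 cells with 1 TRA chain, 88.8% had a Trav UMI, the Trav gene with most UMIs was the named segment in 63.7% of those, and it was of the same subgroup in 85.9%, where a gene tied for most UMIs counted as leading. Cells whose contig was TRAV7D-5 had most UMIs of Trav7-5 in 94.1%, those of TRAV5D-4 of Trav5-4 in 87.5%, and those of TRAV16N of Trav16d-dv11 in 70.6%. Of 70 segments with enough cells, 47 were the leading gene in over 80% of their cells and 16 in under 20%.

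Of 7 genes of the receptor complex in these sums, 2 were higher and 1 lower in CD8 cells. Trac, the alpha constant gene, had a log2 fold change of -0.03, and neither it nor Trbc1, Trbc2 or Cd3g passed the edgeR test. Cd3d was higher in CD8 cells (0.32, edgeR adjusted p = 1.94e-06) and so was Cd3e (0.14, edgeR adjusted p = 0.00566), although the Cd3e share of UMIs was higher in only 3 of 6 pools. Cd247, the zeta chain, was lower (-0.70, edgeR adjusted p = 6.28e-08), in 6 of 6 pools. Zbtb16, a transcription factor of iNKT and MAIT cells, was lower (-2.92, edgeR adjusted p = 3.00e-05). Of the genes of receptor assembly, the recombinase genes Rag1 and Rag2 had 0 UMIs, Ptcra, the surrogate alpha chain of immature thymocytes, had 4, and Dntt, which adds bases at junctions, had 59.

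Expanded CD8 clones, those of 2 or more cells, were next set against CD8 clones of 1 cell, on 860 and 5662 clone counts. No segment of 68 tested passed the edgeR test (0%), and DESeq2 also called 0. TRAV3-3 alone reached an unadjusted p under 0.05 (1 of 68, 1.47%). It held 0.932%, 2.38%, 6.14%, 0.962%, 3.12% and 3.70% of expanded counts in PS-5X, 5XFAD-1, 5XFAD-2, PS19, WT-1 and WT-2, against 0.532%, 0.523%, 2.90%, 1.05%, 1.23% and 2.26% of singleton counts. It was higher among expanded clones in 5 of 6 pools, on 21 expanded clone counts (log2 fold change 0.94, SE 0.39, edgeR adjusted p = 0.924). TRAV13-2 (0.96) and TRAV19 (0.67) had the next smallest p-values with a positive sign, and TRAV14N-3 (-1.25), TRAV10N (-1.19) and TRAV5D-4 (-0.82) the smallest with a negative sign. TRAV14N-3 had 4 expanded against 63 singleton clone counts and was lower among expanded clones in 6 of 6 pools. Its expanded count was 0 in 5XFAD-2, PS19, WT-1 and WT-2. These pools held only 114, 104, 32 and 162 expanded CD8 clone counts over all segments, so a 0 there says little. The share of a segment's CD8 clone counts that came from expanded clones ran from 5.77% to 25%, with a median of 12.9%.

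Counting cells in place of clones changed the shares most for segments of a few large clones. In PS-5X, TRAV14D-2 took 2.43% of CD8 clone counts but 10.5% of CD8 cells, and 363 of its 414 cells (87.7%) were 1 clone. In 5XFAD-1, TRAV7D-2 took 1.46% of clone counts and 10.4% of cells and TRAV15-1-DV6-1 took 0.337% and 9.65%, both from 1 clone of 156 cells that carried the 2 chains. TRAV9-1 there took 2.81% of CD8 clone counts and 8.01% of CD8 cells, with a clone of 100 cells. Among CD4 clones of the same pool, TRAV9-4 took 5.48% of clone counts and 17.6% of cells, with a clone of 53 cells.

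In 5XFAD-2, TRAV16N led with 7.59% of CD8 clone counts and 10.96% of CD8 cells, and its largest clone held 19.7% of its cells. TRAV12-3 there took 4.35% of CD8 clone counts and 9.25% of CD8 cells, and a clone of 56 cells held both TRAV12-3 and TRAV12D-3. In PS19 the largest clone had 24 cells, and TRAV16N took 6.34% of CD8 clone counts and 5.74% of CD8 cells. In WT-1, TRAV7D-2 took 3.09% of clone counts and 7.03% of cells, through a clone of 22 cells whose receptor was also found in 5XFAD-1. In WT-2, TRAV9-4 led with 4.21% of clone counts and 6.56% of cells, with 15.4% of its cells in its largest clone. TRAV16 there took 1.07% and 4.20%, with a clone of 45 cells. TRAV12D-3 was called in the largest clone of both 5XFAD-2 and PS19. The name is uncertain, since 1 V stretch was called TRAV12-3 in 36 clones and TRAV12D-3 in 2 clones.

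**Figure D3:**
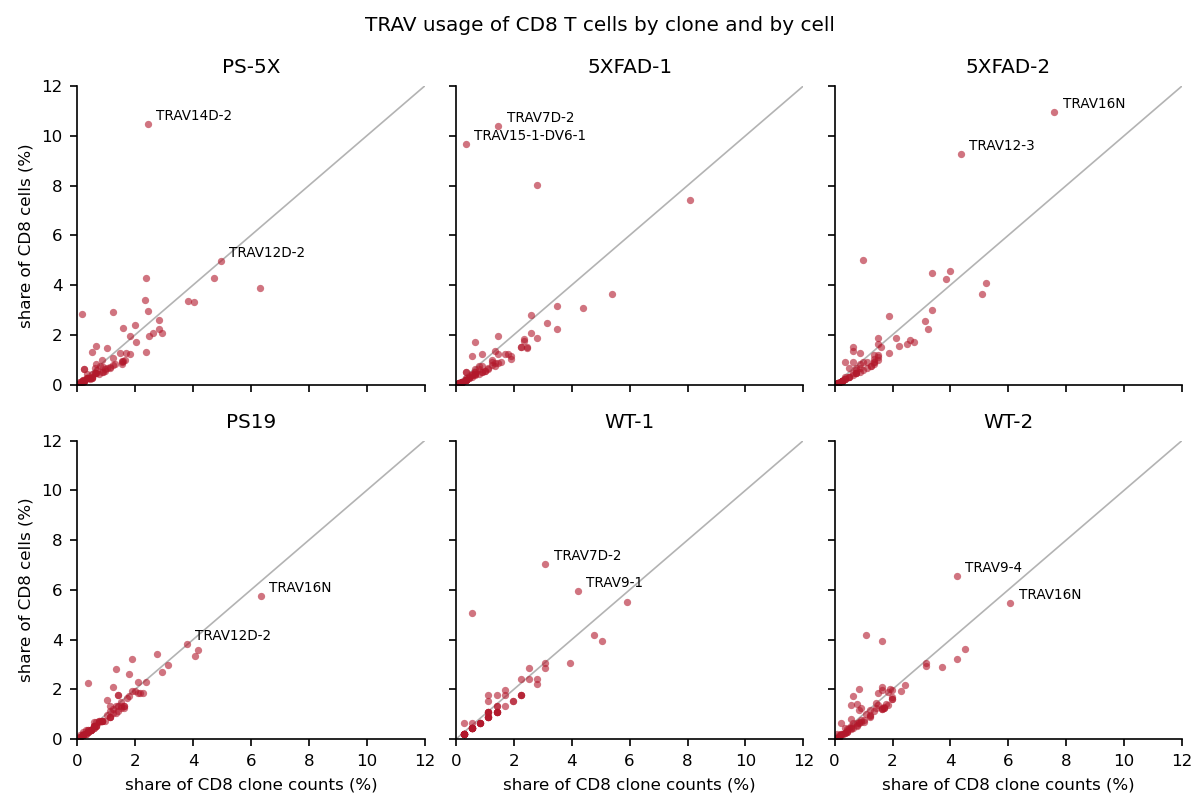
Share of CD8 cells (y axis, percent) against share of CD8 clone counts (x axis, percent) for each TRAV segment, in 1 panel per pool; the grey line marks equal shares. TRAV14D-2 in PS-5X, at 2.43% of clone counts and 10.5% of cells, and TRAV7D-2 and TRAV15-1-DV6-1 in 5XFAD-1, at 10.4% and 9.65% of cells, lie far above the line.

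Amyloid was tested over the 6 pools in 1 fit with tau, with PS-5X, 5XFAD-1 and 5XFAD-2 against PS19, WT-1 and WT-2. Among CD8 clones no segment of 68 passed the edgeR test (0%) and DESeq2 called 0. An unadjusted p under 0.05 was reached by 8 (11.8%), and 14 had groups that did not overlap (20.6%). With 3 pools against 3, chance alone keeps the groups of a segment apart with a probability of 0.1. TRAV9-2 took 0.248%, 0.337% and 0.124% of CD8 clone counts in PS-5X, 5XFAD-1 and 5XFAD-2, against 1.33%, 1.12% and 0.642% in PS19, WT-1 and WT-2. Its lower share in the amyloid pools did not pass (log2 fold change -2.03, SE 0.61, edgeR adjusted p = 0.156), though it did once possible doublets were left out (edgeR adjusted p = 0.0288). It passed in only 2 of 17 alternatives, over which the log2 fold change ran from -3.93 to -0.0611. TRAV9D-3 took 0.248%, 0.786% and 0.373% in the amyloid pools and 2.08%, 1.12% and 0.928% in the pools without amyloid (log2 fold change -1.70, SE 0.55, edgeR adjusted p = 0.156), and it too passed without possible doublets. TRAV9D-3 passed in 2 of 18 alternatives, with log2 fold changes from -2.40 to -0.72. Within the separate sequencing run, which held 5XFAD-2 and WT-2 alone, both segments kept the order, on few clone counts. These were 1 in 5XFAD-2 against 9 in WT-2 for TRAV9-2, and 3 against 13 for TRAV9D-3. The 2 pools are part of the fit above, so this order is no separate support.

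TRAV12D-3 had a log2 fold change of -1.27 in the same comparison (edgeR adjusted p = 0.317), and TRAV7-3 took 3.05 ± 0.756% of CD8 clone counts with amyloid and 1.89 ± 0.424% without (0.74, n = 3 pools each, edgeR adjusted p = 0.371). TRAV6D-4 (1.32) and TRAV13N-4 (1.58) overlapped between the groups. Among CD4 clones no segment of 37 passed the edgeR test (0%, DESeq2 0), 1 reached an unadjusted p under 0.05 (2.7%) and 2 did not overlap (5.41%). TRAV9-1, the 1 of these, took 7.38%, 7.42% and 6.17% of CD4 clone counts in PS-5X, 5XFAD-1 and 5XFAD-2, against 3.48%, 5.30% and 4.55% in PS19, WT-1 and WT-2. The amyloid pools were all above the others (log2 fold change 0.73, SE 0.26, edgeR adjusted p = 0.224). TRAV6-5 (0.67), TRAV7D-4 (0.83), TRAV17 (-1.08), TRAV13D-2 (-0.62) and TRAV9N-4 (-0.47) followed by p-value, with edgeR adjusted p = 0.904 each.

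Tau was tested with PS-5X and PS19 against 5XFAD-1, 5XFAD-2, WT-1 and WT-2, and no segment passed the edgeR test in CD8 clones (0 of 68) or in CD4 clones (0 of 37), nor did DESeq2 call any. Among CD8 clones 2 reached an unadjusted p under 0.05 (2.94%) and 3 did not overlap (4.41%), and among CD4 clones 3 reached it (8.11%) and 3 did not overlap (8.11%). In CD8 clones, TRAV3-3 (log2 fold change -1.40) and TRAV6D-4 (-1.49) had edgeR adjusted p = 0.675 each. TRAV3-1 (-1.21), TRAV12-2 (0.88), TRAV16D-DV11 (1.26) and TRAV14-1 (0.86) had edgeR adjusted p = 0.976 each.

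In CD4 clones, TRAV11 took 1.73% and 2.09% of clone counts in PS-5X and PS19, against 3.55%, 7.47%, 3.79% and 3.83% in 5XFAD-1, 5XFAD-2, WT-1 and WT-2. Both tau pools were below the other 4 (log2 fold change -1.31, SE 0.47, edgeR adjusted p = 0.249), and the difference passed when clones with 1 TRA chain only were kept (edgeR adjusted p = 0.0313). That was the only 1 of 18 alternatives in which it passed, and the log2 fold change ran from -1.76 to -0.86 over them. The 7.47% in 5XFAD-2 is flagged below as far from the other pools. TRAV13-4-DV7 (1.52) and TRAV4-3 (-1.01) had edgeR adjusted p = 0.502 each, and TRAV7D-2 (0.72), TRAV7D-4 (-0.92) and TRAV6N-7 (0.59) edgeR adjusted p = 0.764 each. Without the WT-1 receptors found in other pools, the expansion, amyloid and tau tests also called 0 segments. TRAV9-2 and TRAV9D-3 were then at -1.94 and -1.65 for amyloid in CD8 clones, and TRAV11 at -1.33 for tau in CD4 clones. Both tau pools were single pools of their genotype, and both came from the larger sequencing run.

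The spread of use, as the number of equally used segments that would give the same chance of drawing 1 segment in 2 draws, was 42.2, 40.01, 37.1, 49.2, 45.3 and 45.9 for CD8 clones in PS-5X, 5XFAD-1, 5XFAD-2, PS19, WT-1 and WT-2. For CD4 clones it was 38.9, 40.3, 42.0, 54.7, 41.0 and 46.9. PS19 had the highest value in both classes. WT-1 without the receptors found in other pools had 45.2 for CD8 and 44.3 for CD4.

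The TRAJ partner went with position. Over the 74 segments with at least 20 clone counts, the order along the locus and the median TRAJ number of a segment's chains had a Spearman correlation of 0.564, given as a description since the segments share clones and libraries. Low TRAJ numbers lie farthest from the V segments. The median TRAJ number was 30 in the part of the locus farthest from the TRAJ segments, 31 in the middle and 39 in the nearest part, and 28.6%, 33.5% and 47.1% of chains used TRAJ40 or a higher number. The 3 nearest segments tested joined mostly high numbers: TRAJ40 or higher made up 79.0% of TRAV17 chains (median TRAJ number 49), 89.3% of TRAV19 chains (median 56) and 87.4% of TRAV21-DV12 chains (median 53). TRAJ57 alone took 40.7% of TRAV19 chains. At the far end, TRAV1 had a median of 30 with 4.44% at TRAJ40 or higher, and TRAV2 a median of 27 with 8.25%. TRAV11, with its TRAJ18 partner, stood far below its neighbours at 18.

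**Figure D4:**
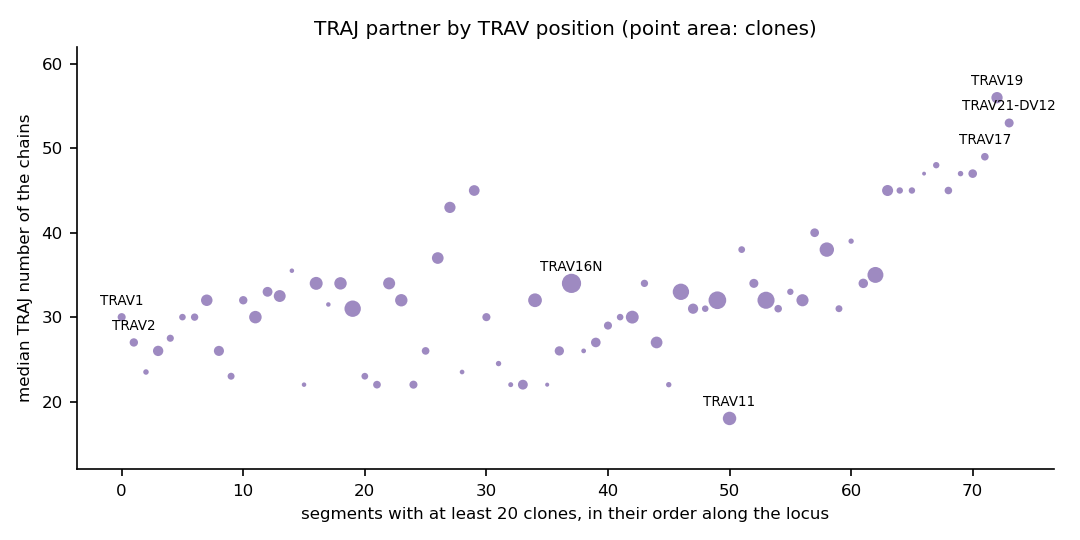
Median TRAJ number of the chains of each segment (y axis) for the 74 segments with at least 20 clone counts, in their order along the locus (x axis); point area follows the number of clones. TRAV17, TRAV19 and TRAV21-DV12 at the right end lie at 49 to 56, and TRAV11 lies at 18.

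The same gradient was seen in both classes. TRAJ40 or higher was used by 27.2%, 32.7% and 48.8% of CD8 chains in the far, middle and near part of the locus, and by 30.4%, 35.0% and 50.3% of CD4 chains. Mean CDR3 length by segment ran from 12.8 amino acids for TRAV8N-2 to 15.7 for TRAV15D-1-DV6D-1, with a median of 13.6 over the 74. TRAV16N averaged 14.8 and TRAV11 15.05. Over all chains the mean was 13.8 ± 1.41 amino acids for CD8 and 13.6 ± 1.36 for CD4 clones (SD over 6543 and 2371 chains).

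Many names held more than 1 V sequence. Comparing contigs from the first to the third framework and counting sequences found in at least 5 clones, 52 of 85 names had more than 1 sequence, 39 had exactly 2 and 13 had 3 or more. The 2 sequences of the 39 names differed at 1 to 9 bases, with a median of 2. The less common of the 2 took 21.1%, 19.3%, 23.7%, 41.5%, 31.6% and 27.6% of clone counts in PS-5X, 5XFAD-1, 5XFAD-2, PS19, WT-1 and WT-2. The 95% Clopper-Pearson interval in PS19 was 37.9% to 45.2%, which covers counting error only, and it lay above those of the other 5 pools, the closest being that of WT-1, which ended at 37.5%. In WT-1 without the receptors found in other pools the share was 29.4% (95% interval 23.4% to 36.0%).

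PS19 alone had the highest share for 17 of the 39 names, WT-1 for 8, 5XFAD-2 for 5, 5XFAD-1 for 3, WT-2 for 3 and PS-5X for 1, and for the other 2 PS19 was tied with WT-1 or WT-2. For TRAV7-3 the less common sequence took 59.1% of clone counts in PS19, against 7.59%, 8.82%, 24.3%, 18.2% and 8.70% in PS-5X, 5XFAD-1, 5XFAD-2, WT-1 and WT-2. Summed over the 39 names, the share in PS19 was 42.9% among CD8 and 43.0% among CD4 clones. PS19 had the lowest share of the 6 pools for TRAV12D-2 (20.8%), TRAV4D-4 (18.2%) and TRAV3-3 (6.67%). For TRAV3-4 and TRAV9D-2 it was tied for lowest at 0%. The second sequence of TRAV12D-2 had 142 CD8 and 13 CD4 clones, and its first 150 CD8 and 32 CD4 clones. PS19 was 1 pool, so its genotype and the mice pooled cannot be told apart. Whether these sequences are strain alleles or copies under 1 name was not tested.

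**Figure D5:**
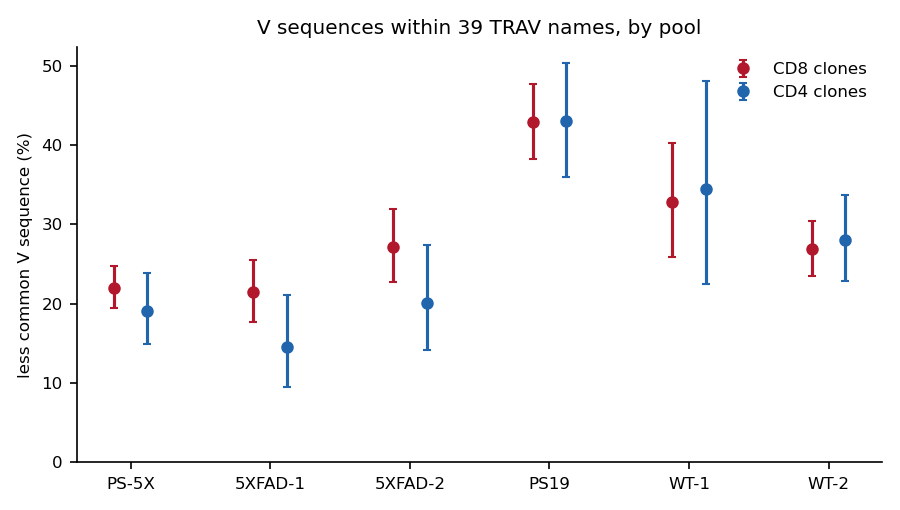
Share of clone counts with the less common V sequence (y axis, percent), summed over the 39 TRAV names with exactly 2 sequences, by pool (x axis), for CD8 clones in red and CD4 clones in blue; bars are 95% Clopper-Pearson intervals. PS19 lies highest at 42.9% and 43.0%, and the 2 classes of a pool have overlapping intervals.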

How the data were processed

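T cells of 6 pools were profiled with a 5′ single-cell gene expression library and a receptor library each. Per the submitters' processing notes, the reads were processed with Cell Ranger 6.0.1; the builds named are GRCm38 and mm10, with no role stated. The deposited matrix holds UMI counts per gene and barcode, and the deposited receptor table holds UMI counts per contig, with clonotypes and V gene names as the authors gave them; per the file headers, framework and CDR sequences come with each contig. Every listed chain was taken as called.

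Clone counts per TRAV segment were summed per pool and class, and segments with at least 20 clone counts in a comparison were tested with edgeR 4.0.16 (quasi-likelihood, total clone counts as library size, Benjamini-Hochberg over all segments tested, threshold 0.05). CD8 against CD4 and expanded against singleton fits had pool as a block; amyloid and tau were 2 terms of 1 fit. The expression test used TMM; the genes that set the class (Cd8a, Cd8b1, Cd4) were fitted with the rest and left out of the numbers of genes tested and passed. DESeq2 1.42.0 was an alternative. R 4.3.3, Python 3.11.15, pandas 2.3.3 and scipy 1.17.1 were used, and the fits were tested on simulated data.

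Positions are those of RefSeq genes in GRCm38.p6, matched by name. No doublet caller was run; clones with over 1 TRB or over 2 TRA chains were left out in an alternative. Replicate number 2 marks the separate run per the labels; deviations of WT-2 and 5XFAD-2 from their groups correlated at 0.26 (CD8) and -0.09 (CD4) over 74 segments.

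Named segments were the 10 with most clones; up to 8 of the largest changes per direction past the threshold, or, with under 3 past it, the 3 smallest p-values per direction; TRAV1, TRAV11, TRAV11D, TRAV14D-2 and TRAV7D-2; and those with under 5 clones. TRAV2, TRAV3D-3, TRAV8D-1, TRAV9D-2, TRAV12N-3, TRAV15-1-DV6-1, TRAV15D-1-DV6D-1 and TRAV16 were named outside this rule, after their values were seen. Members and lists were chosen with earlier results of these data known.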

Additional observations from a re-analysis of the deposited data

Results flagged for a closer look

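A sample far from the others of its set of 6 was found in 4 of 68 sets checked with Dixon's test, where chance gives about 1 in 20. TRAV11 took 7.47% of CD4 clone counts in 5XFAD-2, far above the other 5 pools, and it remained lower in CD8 clones without that pool. TRAV12-1 took 0.746% of CD8 clone counts in 5XFAD-2, the lowest of the 6. TRAV21-DV12 took 3.10% of CD4 clone counts in WT-2, the highest of the 6. The share of clones whose receptor was also found in another pool was 21.5% in WT-1. No segment had opposite signs in every pool of 2 groups among the 28 checked.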

How the results depend on the processing

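All 19 segments past the CD8 against CD4 test kept their sign in every alternative that tested them. The number past the threshold was 12 with DESeq2 (6 higher, 6 lower), 11 with segments joined by subgroup, 16 with no replicate block (pool) and 14 to 19 with 1 pool left out; of the 19 themselves, 13 passed without WT-2, 12 with each cell counted once and 15 among clones of 1 cell, this last alternative and the leaving out of TRAV11 being chosen after seeing the data. For amyloid in CD8 clones the count of 0 became 2 without possible doublets (TRAV9-2 -1.98, TRAV9D-3 -1.75), 1 with copies joined and 1 with each cell counted once. For tau in CD4 clones it became 1 with no filter (TRAV9-2 3.73) and 1 with clones of 1 TRA chain (TRAV11 -1.42). Adding the sequencing run as a replicate block left amyloid and tau at 0 in both classes. Expression calls were 1752 with no replicate block and 2484 to 2953 with 1 pool left out.

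None of the log2 fold changes that turned sign had passed a test, and the cause was not tested. With each cell counted once, CD8 against CD4 gave -0.22 for TRAV1, -0.39 for TRAV12-3, -0.20 for TRAV13-1, -0.0038 for TRAV6-6, 0.47 for TRAV7D-2 and -0.61 for TRAV9-4; amyloid gave 0.20 for TRAV12D-3, and tau -0.19 for TRAV14-1 and 0.40 for TRAV3-1. Classing at 2 UMIs gave -0.11 for TRAV12-3, -0.055 for TRAV13-1 and -0.081 for TRAV9-4. With no replicate block TRAV12-3 was at -0.021 and TRAV9-4 at -0.023, and with TRAV11 left out they were at -0.031 and -0.030. TRAV9-4 was at -0.025 without possible doublets, -0.0059 with clones of 1 TRA chain and -0.050 with copies joined. Joined copies gave -0.056 for TRAV7D-4 and 0.11 for TRAV9N-4 with amyloid. Expansion set at 3 cells gave -0.17 for TRAV19. With 1 pool left out, CD8 against CD4 ran from -0.042 to 0.42 for TRAV1, -0.11 to 0.14 for TRAV12-3, -0.43 to 0.081 for TRAV7D-2 and -0.10 to 0.22 for TRAV9-4, and tau in CD4 clones from -1.49 to 0.075 for TRAV7D-4. Depth limits the 15 segments with at most 18 clone counts, which were not tested, and WT-1, which had the fewest clones.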
